A study of Mus musculus with 2 samples.

Results

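Mitochondrial DNA maintenance, transcription and RNA processing rest on nuclear genes, and the 41 such genes examined here are given by 43 symbols, among which Peo1 and Twnk, and Mterfd1 and Mterf3, are an older and a current symbol of the same gene. Of these, 39 had a probe set of their own on the arrays, out of 19936 nuclear genes. The transcripts of Mterf1a and Fastkd5 were read only by probe sets that another gene shares. The list is defined by the known functions of the genes, but it was chosen with earlier results of these data known.

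Affymetrix arrays were used to measure transcripts of the gastrocnemius, a muscle of the calf, with 1 array for the controls and 1 for the PGC-1β(i)skm-/- mutants, and each of these 2 arrays held RNA pooled from 3 mice. All mice were 8-week-old C57BL/6 males carrying floxed PGC-1β alleles, in which exon 5 is flanked by LoxP sites, and all received 1 mg of tamoxifen daily for 5 days from 7 weeks of age, according to the methods of the study. Only the mutants carried the transgene for Cre-ERT2, a recombinase that tamoxifen activates and that the human skeletal actin promoter expresses in myofibres, so that the effects of the transgene and of the deletion cannot be told apart. The sample label gives the genotype of the controls as wild-type. The muscle was taken 1 week after the last tamoxifen administration, and cells other than myofibres keep PGC-1β.

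Mitochondria keep a small circular genome that encodes subunits of the respiratory chain together with the ribosomal and transfer RNAs needed to translate them. The proteins that copy, transcribe and process this genome are encoded in the nucleus and imported. The DNA is copied by the polymerase Polg with the helicase Twnk, and it is packaged by Tfam and transcribed by Polrmt into long RNAs, which are cut at the transfer RNAs, modified, polyadenylated, and either kept stable or degraded. Muscle is rich in mitochondria, and PGC-1 coactivators are known to enhance the expression of nuclear genes with mitochondrial functions.

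Values are log2 signals after RMA, a procedure that brings the arrays to a common distribution and combines the probes of a gene, and on this scale 1 unit is a factor of 2, and each difference is the mutant minus the control value. With 1 array per genotype, no difference has an error or a test, and "lower" and "higher" describe these 2 arrays alone. The probe set of Ppargc1b, the targeted gene, had log2 signals of 7.87 in controls and 7.06 in mutants, and since it is not limited to the deleted exon it checks the deletion only in part. All 9 markers of skeletal muscle fibres were bright on both arrays, from 12.71 to 13.91, with differences from -0.16 to 0.04. Of 8 macrophage markers, 8 were higher on the mutant array (median log2 difference 0.27), as were 8 of 8 connective tissue markers (median 0.20), 4 of 5 endothelial markers, 3 of 4 B and T cell markers and 2 of 4 fat markers, while 1 Schwann cell and 1 red cell marker were lower. The mean log2 signals of the macrophage markers ranged from 5.81 to 7.95. The part of these cells in the results was not tested, and in whole muscle fewer cells of a type and less RNA per cell cannot be told apart. The standard deviation of the difference over all nuclear genes was 0.12.

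Of the 39 genes, 27 were lower in PGC-1β(i)skm-/- muscle, against 50.2% of all nuclear genes, and 12 were higher, against 49.6%. The median log2 difference was -0.07, against -0.00055 over all genes. In Fastkd1 alone the mutant signal divided by that of the control was 0.8 or less, a threshold of the study's methods that 0.652% of all nuclear genes passed. A ratio of 1/1.2 or less was found for 6 genes, Fastkd1, Tbrg4, Tefm, Fastk, Supv3l1 and Lrpprc, against 1.69% of all nuclear genes. The results section of the study counts decreases of at least 1.2-fold, which corresponds to this ratio. Lrpprc was just inside this threshold, at a ratio of 0.831, and Tfam just outside, at 0.840. None of the 39 genes had a ratio of 1.2 or more, which 1.64% of all genes reached.

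The values differed by role. All 14 genes of mitochondrial RNA stability and decay with a probe set of their own were lower on the mutant array, with a median log2 difference of -0.18, and these include 5 of the 6 genes past 1/1.2. The 25 genes of the other 4 roles had a median of -0.02, with 13 lower and 12 higher. By role, the medians were -0.13 for 5 genes of transcription, -0.01 for 8 genes of replication, -0.01 for 8 genes of RNA processing and modification, and 0.01 for 4 genes of nucleotide supply. These differences between roles were not tested. The roles were assigned with earlier results of these data known, and several genes have more than 1, since Ptcd1, Ptcd3 and Fastkd2, counted under RNA stability and decay, also act in or on the ribosome, so that the count of 14 depends on this grouping.

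**Figure D1:**
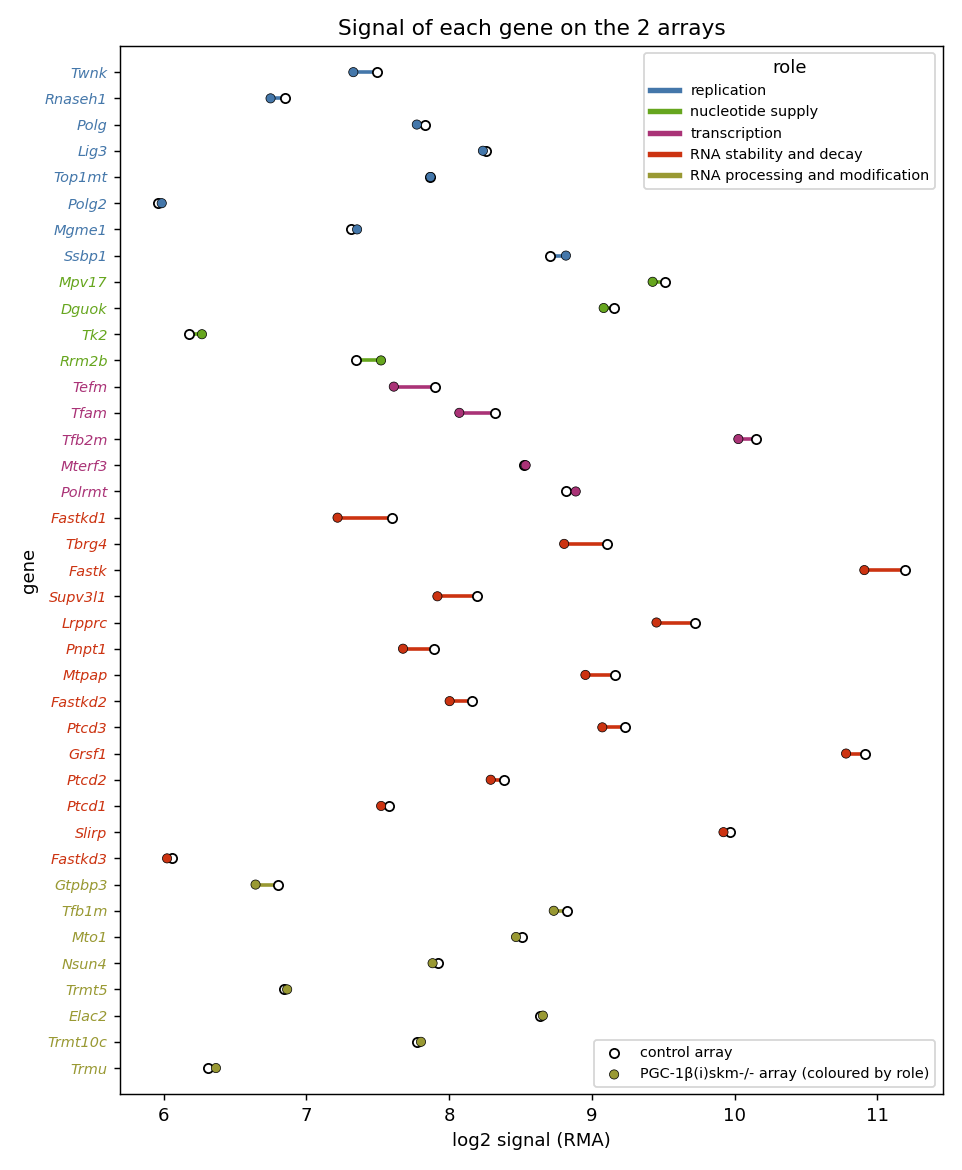
Log2 signal (horizontal axis) of each of the 39 genes (vertical axis, grouped by role) on the control array (open circles) and the PGC-1β(i)skm-/- array (filled circles, coloured by role), with a line joining both values of a gene. In all 14 genes of RNA stability and decay (red) the filled circle lies to the left of the open one, whereas in the other roles it lies on either side.

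Since PGC-1 coactivators act through transcription factors bound near genes, promoters are shown for the 4 members with the largest decreases. Those of 2 genes of transcription are added, Tfam, which was lower, and Polrmt, which was not. The 250 bases before the start of each gene are given 5′ to 3′ on the strand of the gene, as in RefSeq, build GRCm38.p6. Capitals mark the letters CCGGAAG or their reverse complement, the core that ETS factors such as GABPA (NRF-2), a regulator of many mitochondrial genes, are known to bind.
Fastkd1, chr2:69712607-69712856, minus strand: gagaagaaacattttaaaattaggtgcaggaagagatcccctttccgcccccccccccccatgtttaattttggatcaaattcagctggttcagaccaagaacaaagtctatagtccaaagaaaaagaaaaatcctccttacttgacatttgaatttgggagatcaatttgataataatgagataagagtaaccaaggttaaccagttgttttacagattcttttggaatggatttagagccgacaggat
Tbrg4, chr11:6626068-6626317, minus strand: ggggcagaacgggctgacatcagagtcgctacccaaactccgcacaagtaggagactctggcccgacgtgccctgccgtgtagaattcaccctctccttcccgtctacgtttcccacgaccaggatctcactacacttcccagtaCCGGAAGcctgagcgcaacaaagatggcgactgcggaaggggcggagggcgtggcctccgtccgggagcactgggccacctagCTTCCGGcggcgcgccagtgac
Tefm, chr11:80142154-80142403, minus strand: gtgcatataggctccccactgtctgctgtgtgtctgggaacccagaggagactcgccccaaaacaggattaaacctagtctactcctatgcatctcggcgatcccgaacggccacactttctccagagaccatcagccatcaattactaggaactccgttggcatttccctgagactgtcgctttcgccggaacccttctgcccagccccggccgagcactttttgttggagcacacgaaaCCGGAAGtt
Fastk, chr5:24445236-24445485, minus strand: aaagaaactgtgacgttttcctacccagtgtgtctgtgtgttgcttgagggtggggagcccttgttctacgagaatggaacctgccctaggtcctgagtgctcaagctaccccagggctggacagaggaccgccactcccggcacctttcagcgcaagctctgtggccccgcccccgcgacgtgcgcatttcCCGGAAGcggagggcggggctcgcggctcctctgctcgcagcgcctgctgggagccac
Tfam, chr10:71238045-71238294, minus strand: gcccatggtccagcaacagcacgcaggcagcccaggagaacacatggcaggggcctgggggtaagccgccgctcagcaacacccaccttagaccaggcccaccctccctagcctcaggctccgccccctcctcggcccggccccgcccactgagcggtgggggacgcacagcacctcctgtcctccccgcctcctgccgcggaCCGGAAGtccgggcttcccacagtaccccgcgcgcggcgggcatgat
Polrmt, chr10:79746582-79746831, minus strand: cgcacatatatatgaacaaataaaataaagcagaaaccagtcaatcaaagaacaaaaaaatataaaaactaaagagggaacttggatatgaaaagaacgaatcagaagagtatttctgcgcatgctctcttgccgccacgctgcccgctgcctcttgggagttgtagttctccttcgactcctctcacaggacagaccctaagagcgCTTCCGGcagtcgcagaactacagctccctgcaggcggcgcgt
Fastkd1, with the largest decrease of the list, has no match to the core in this window. Supv3l1 and Lrpprc, whose decreases come next after the first 4 and whose promoters are not shown, have none either. Tbrg4 has 2, at 105 and 22 bases before the start, and Tefm, Fastk and Tfam have 1 each, at 9, 58 and 47 bases before it. Polrmt has 1 as well, at 43 bases before the start, and its signal was not lower.

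Promoter windows from 250 bases before to 50 after a start were found for 36 of the 41 genes, and a gene with several windows was counted once. On either strand, CCGGAAG was present for 18 of these 36 (50%), against 9.93% of all 27025 genes with a window, 13.6% of 15614 nuclear genes of the arrays and 21.2% of the 6634 with a mean log2 signal of 7 or more. Of the genes with the core, 16 had a probe set of their own, with 9 lower and a median log2 difference of -0.05. Without it, 16 of 18 were lower, with a median of -0.09. Those without it include Tfb1m and Tfb2m, although the study states that the genes of TFB1 and TFB2 hold NRF-2-binding sites. A gene without these exact letters can thus still hold such a site. The core was present for 3 of the 6 genes past a ratio of 1/1.2 and for 7 of 9 genes with a higher signal and a promoter in the table.

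The letters AAGGTCA, the core bound by estrogen-related receptors, were found for Twnk and Fastkd5 only, 2 of 36 genes (5.56%), against 5.38% of all genes with a window, 4.48% of nuclear genes of the arrays and 3.77% of those with a mean log2 signal of 7 or more. The longer TCAAGGTCA, which contains it, was found for none, against 0.466%, 0.346% and 0.286% of the same sets. GCGCATGCG, a form of the site of NRF-1, was found for Tfb2m only, 1 of 36 genes (2.78%), against 1.95%, 2.85% and 4.76% of these sets. Both strands were searched. A match is a description of letters, and its absence concerns these exact letters in this window only. On the arrays, Gabpa had log2 signals of 8.29 and 8.18, Nrf1 of 7.18 and 7.12, and Ppargc1a, encoding PGC-1α, of 10.18 and 10.29. Of the estrogen-related receptors, Esrra had signals of 8.28 and 8.13, Esrrg of 7.86 and 7.92, and Esrrb, which was dim, of 5.88 and 5.67.

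**Figure D2:**
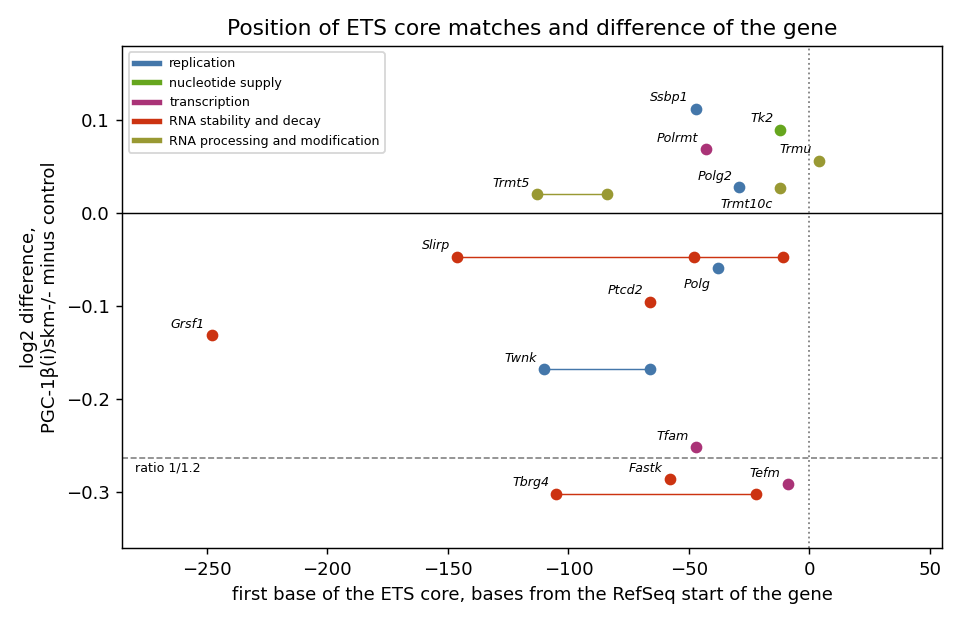
Each point is a match to the ETS core, at the distance of its first base from the RefSeq start of the gene (horizontal axis, in bases) and the log2 difference of that gene (vertical axis, mutant minus control), coloured by role, with lines joining matches of a gene and a dashed line at a ratio of 1/1.2. Genes with a match within 150 bases before the start lie between -0.30 and 0.11, both above and below 0.

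The 6 proteins of the FASTK family (Fas-activated serine/threonine kinase, named after its first member) bind mitochondrial RNA and are known to govern the maturation or stability of particular transcripts. Fastkd1 had a log2 signal of 7.60 in controls and 7.22 in mutants, a ratio of 0.769. Tbrg4, also called Fastkd4, had signals of 9.11 and 8.81, a ratio of 0.812. Fastk, whose mitochondrial form is known to be required for the mRNA of the complex I subunit ND6, had signals of 11.20 and 10.91, a ratio of 0.820. Thus 3 of the 5 members of the family with a probe set of their own passed a ratio of 1/1.2, against 1.69% of all nuclear genes. The list that holds them was chosen with earlier results of these data known. Fastkd2, a protein of the RNA granules in which mitochondrial ribosomes are assembled, had a control signal of 8.16 and a difference of -0.16. Fastkd3 was dim and differed little, with 6.06 and 6.02. The probe set that Fastkd5 shares with Ubox5 had signals of 8.12 and 8.06 and cannot be assigned to either gene.

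Among genes of RNA degradation and polyadenylation, the log2 differences ranged from -0.28 for Supv3l1 to -0.13 for Grsf1. Supv3l1 encodes the helicase that unwinds RNA for the exoribonuclease PNPase, encoded by Pnpt1, and together they form the mitochondrial degradosome. Supv3l1 had log2 signals of 8.20 and 7.92, a ratio of 0.824, and Pnpt1 of 7.90 and 7.68, a ratio of 0.859. Grsf1, which binds G-rich RNA in the granules and aids this degradation, had signals of 10.91 and 10.78. Mtpap, the poly(A) polymerase of mitochondria, had signals of 9.16 and 8.96, a ratio of 0.866. All 4 were lower on the mutant array, and Supv3l1 alone of them passed a ratio of 1/1.2.

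Lrpprc and Slirp form a complex that stabilizes mitochondrial mRNAs and is needed for their polyadenylation. The partners had unequal differences. Lrpprc had log2 signals of 9.72 and 9.45, a ratio of 0.831, while those of Slirp were 9.97 and 9.92, a ratio of 0.968. Lrpprc belongs to the pentatricopeptide repeat proteins, which recognize RNA through repeated helical motifs, as do Ptcd1, Ptcd2 and Ptcd3. Ptcd3, a component of the small mitochondrial ribosomal subunit, had signals of 9.23 and 9.07. Ptcd2, which acts on cytochrome b RNA, had signals of 8.39 and 8.29, and Ptcd1, which acts on leucine transfer RNAs and ribosomal RNA, of 7.58 and 7.52. These 4 repeat proteins were lower, with ratios from 0.831 to 0.963. Polrmt, which also holds such repeats, was higher, with a ratio of 1.05, and Prorp, the nuclease subunit of the mitochondrial RNase P and a repeat protein of the wider list, had a ratio of 0.975.

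Among genes of transcription, those of elongation and packaging were lower on the mutant array, and that of the polymerase was not. Tefm, the elongation factor that keeps the polymerase on its template, had log2 signals of 7.90 and 7.61, a ratio of 0.817. Tfam, which bends the promoters and coats the genome, had signals of 8.32 and 8.07, a ratio of 0.840. By quantitative RT-PCR, the study found similar Tfam transcript levels in this muscle of both genotypes, at the age of the arrays and later. The lower array signal of Tfam thus differs from that measurement. Tfb2m, which melts the promoter for initiation, had signals of 10.15 and 10.03, and its second probe set, with 10.08 and 9.95, gave nearly the same difference (-0.13 for both). For Tfb2m and its paralogue Tfb1m, the study reports decreases by RT-PCR in older mutants, later than for other nuclear genes of mitochondrial proteins. Polrmt, the RNA polymerase itself, had signals of 8.82 and 8.89. Mterf3, which is known to restrain transcription and to act in ribosome assembly, had 8.53 and 8.54. The 2 probe sets that Mterf1a, a termination factor, shares with its near copy Mterf1b had a log2 difference of 0.05 each, at control signals of 5.70 and 5.95.

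**Figure D3:**
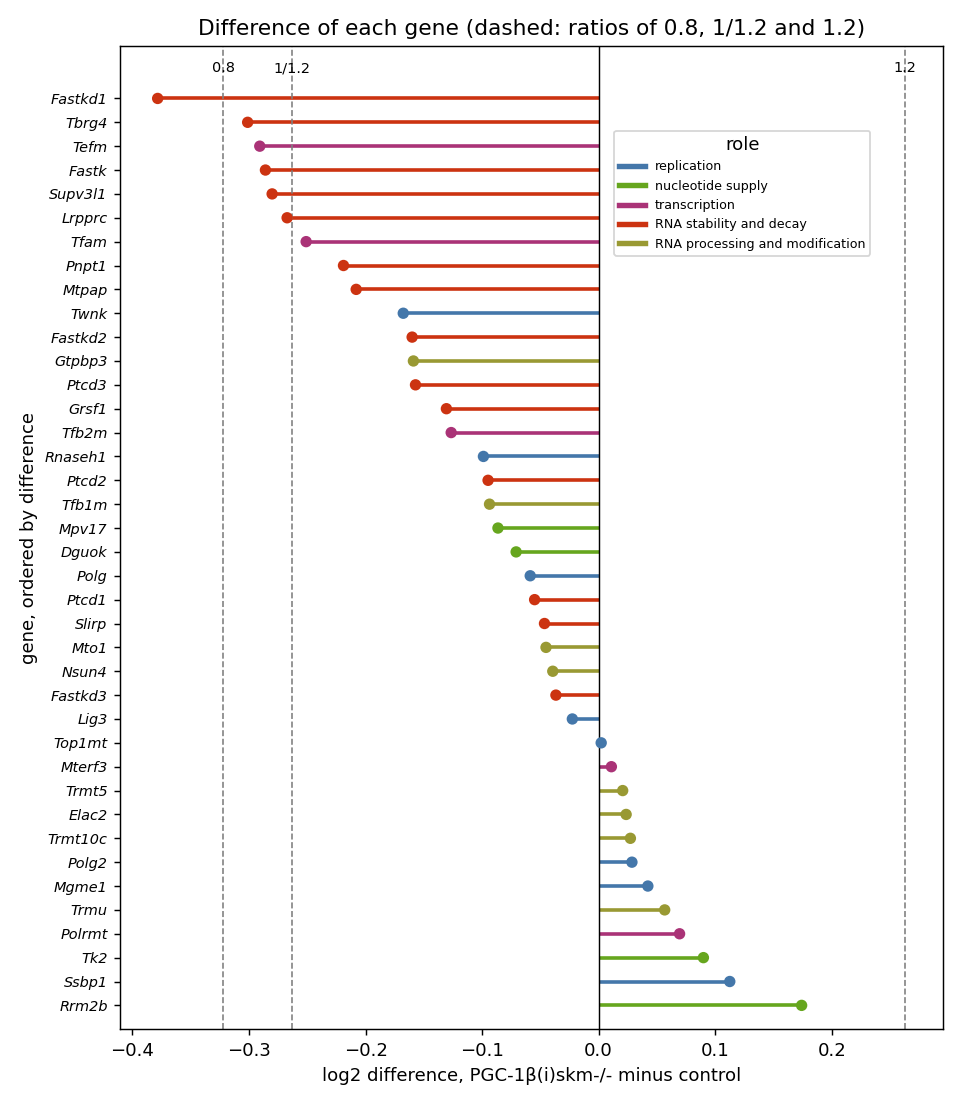
Difference in log2 signal between mutant and control array (horizontal axis) of each of the 39 genes (vertical axis, ordered by difference and coloured by role), with dashed lines at ratios of 0.8, 1/1.2 and 1.2. Fastkd1 lies beyond 0.8, and Tbrg4, Tefm, Fastk, Supv3l1 and Lrpprc lie between 0.8 and 1/1.2, while Rrm2b, at 0.17, is the highest point and stays under 1.2.

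The genes of mitochondrial DNA replication lay on both sides of 0. Twnk, the helicase that opens the DNA ahead of the polymerase, had log2 signals of 7.50 and 7.33, a ratio of 0.890, the largest decrease of this role. Polg, the catalytic subunit of the DNA polymerase, had signals of 7.83 and 7.77, and its accessory subunit Polg2, at the dim end of the list, 5.96 and 5.99. Both subunits were thus within 0.06 of 0. Rnaseh1, which removes RNA primers, had signals of 6.85 and 6.75. Lig3, the DNA ligase used in nucleus and mitochondria, had 8.26 and 8.24, and the nuclease Mgme1 7.31 and 7.36. Top1mt, the mitochondrial topoisomerase, had 7.87 on both arrays.

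Ssbp1, the protein that coats single-stranded mitochondrial DNA, gave no settled direction. Its probe set of higher signal had log2 signals of 8.71 and 8.82, a difference of 0.11, and its other probe set 7.18 and 7.05, a difference of -0.14. The annotation lists the same RefSeq transcripts for both. The counts and medians above use the probe set of higher signal, so they count Ssbp1 as higher. Ssbp1 and Tfb2m were the 2 genes of the list with more than 1 probe set of their own.

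For the supply of deoxynucleotides, 2 of 4 genes were lower and 2 higher. Rrm2b, the p53-inducible small subunit of ribonucleotide reductase, which serves cells that do not divide, had log2 signals of 7.35 and 7.52, a ratio of 1.13 and the largest increase of the list. Tk2, the mitochondrial thymidine kinase, had signals of 6.18 and 6.27. Dguok, the deoxyguanosine kinase, had 9.15 and 9.08, a ratio of 0.952. Mpv17, an inner membrane protein whose loss depletes mitochondrial DNA, had 9.51 and 9.43, and the 2 probe sets that it shares with Gtf3c2 had 8.47 and 8.39 and, at a dim signal, 4.48 with a difference of -0.48. None of the 4 passed a ratio of 1/1.2 or 1.2.

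The 8 members that cut and modify the transfer and ribosomal RNAs had differences from -0.16 to 0.06, and 21 further genes of this role from -0.32 to 0.16. Elac2, which trims the 3′ ends of transfer RNAs, had log2 signals of 8.63 and 8.66, and Trmt10c, a subunit of the mitochondrial RNase P that cuts their 5′ ends, 7.78 and 7.80. Mto1 and Gtpbp3, which together modify the wobble base of a group of transfer RNAs, had signals of 8.51 and 8.47 and of 6.80 and 6.64. Trmu, which thiolates the same base, had 6.31 and 6.37. The ratio was 0.896 for Gtpbp3 and 0.969 for its partner Mto1. Trmt5, a methyltransferase of transfer RNAs, had signals of 6.85 and 6.87. Nsun4, a methyltransferase of ribosomal RNA, had 7.92 and 7.88. Tfb1m, the paralogue of Tfb2m that dimethylates the small ribosomal RNA, had 8.83 and 8.73, a ratio of 0.937.

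A further 53 genes of these processes, which were listed separately, included 50 with a probe set of their own. Of these, 38 were lower on the mutant array, against 50.2% of all nuclear genes, with a median log2 difference of -0.05. Mterf2 alone, of the family of termination factors, had a ratio of 0.8 or less (log2 signals 6.37 and 6.04), against 0.652% of all nuclear genes. A ratio of 1/1.2 or less was found for 3, against 1.69%, and none had a ratio of 1.2 or more, against 1.64%. Trmt2b, a methyltransferase of mitochondrial RNA, had signals of 8.30 and 7.98, and Cmpk2, a mitochondrial nucleotide kinase known as interferon-inducible, 5.51 and 5.19. The next largest decreases were those of Mettl17, a factor of ribosome assembly (-0.25), Eral1, a chaperone of the small ribosomal RNA (-0.24), and Exog, a mitochondrial nuclease (-0.23). The 10 further genes of RNA stability and decay had a median of -0.04, with 8 lower and none past a ratio of 1/1.2, beside the median of -0.18 of the 14 genes above. The largest increases were those of Primpol, a primase-polymerase (0.18), Yrdc, of transfer RNA modification (0.16), and Rpusd4, a pseudouridine synthase (0.12).

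**Figure D4:**
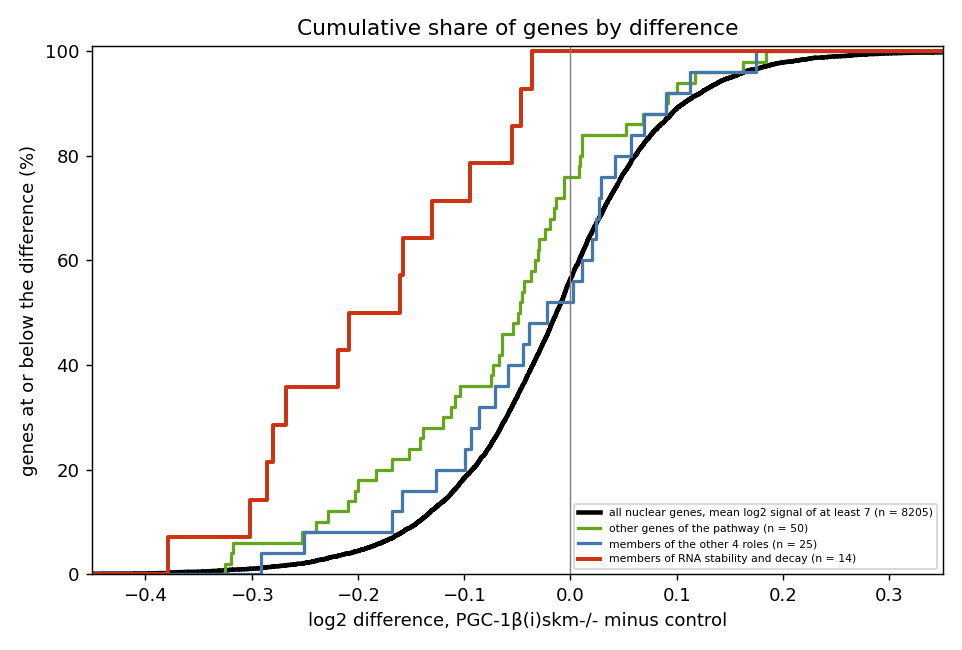
Percentage of genes (vertical axis) at or below a given difference in log2 signal between mutant and control array (horizontal axis), for the 14 genes of RNA stability and decay (red), the 25 genes of the other roles (blue), 50 other genes of these processes (green) and the 8205 nuclear genes with a mean log2 signal of 7 or more (black). The red curve reaches 100% below 0, whereas the blue curve runs close to the black one around 0. Roles were assigned with earlier results of these data known.

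The mitochondria-encoded transcripts themselves were read by 4 probe sets with 1 gene symbol. Those of COX2, a subunit of complex IV, had log2 signals of 13.38 and 13.42 and of 13.30 and 13.33. Those of ND3, a subunit of complex I, had 12.69 and 12.71 and 13.22 and 13.20. The differences ranged from -0.02 to 0.04, with a median of 0.03, beside a median of -0.07 for the 39 nuclear genes. These signals lie near the top of the scale, whose highest value was 14.25, and whether the arrays still resolve differences there was not tested. The study's RT-PCR gave similar levels of mitochondria-encoded transcripts in both genotypes in this muscle at the age of the arrays. Levels were lower in mutants at older ages.

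Other nuclear genes of mitochondrial gene expression are set beside these values. The median log2 difference was -0.11 for 77 mitochondrial ribosomal proteins, with 68 lower and 5 at a ratio of 1/1.2 or less, and -0.06 for 16 mitochondrial transfer RNA synthetases, with 13 lower and 1 at that ratio. For 34 subunits of complex I the median was -0.22, with 33 lower and 10 at that ratio. Of all nuclear genes, 50.2% were lower and 1.69% were at that ratio. The 14 genes of RNA stability and decay, at -0.18, thus lay between the ribosomal proteins and complex I. These 14 were grouped with earlier results of these data known, and 10 further genes of this role had a median of -0.04. The other 25 members, at -0.02, lay nearer to 0 than each of these lists, and no test compared the lists. Among bright genes, with a mean log2 signal of 7 or more, 24 of 32 members were lower, against 56.4% of 8205 nuclear genes, and among the 7 dimmer members 3 were lower.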

How the data were processed

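Total RNA from gastrocnemius muscle, 1 pool of 3 mice per genotype, was labelled from 150 ng and hybridized to Affymetrix Mouse Gene 1.0 ST arrays. The authors deposited log2 values of each probe set, for which they extracted intensities with GeneChip Command Console 3.2 and summarized probes by RMA (background correction, quantile normalization, median polish) in Expression Console 1.1. Quantile normalization hides a change shared by all genes. No build is named for the array in the sources used here. The number of arrays limits the precision, and there was no detection call.

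Of 35556 probe sets, 21789 had 1 gene symbol in the platform annotation, 1621 several and 12146 none listed. Through their Entrez IDs, 21698 of those with 1 symbol matched a gene of RefSeq (GRCm38.p6), whose symbol was used. Each gene was represented by its probe set with the highest mean. Members, roles and lists were chosen with earlier results of these data known. All members were named, and of the other genes of the pathway those past a ratio of 0.8 or 1.2, the 6 lowest and the 3 highest. Esrrg, Esrrb and Prorp were added after their values were seen. The thresholds of 0.8 and 1.2 are those of the study's methods, and its results count decreases of at least 1.2-fold. Probe sets of several genes were left out of counts, except in an alternative that kept them. Promoter windows came from RefSeq (GRCm38.p6). No test was made. Alternatives were other choices of probe set, minimum mean signals of 6 and 7, a loess curve (span 0.3) or the median difference subtracted, and other thresholds. The counting was run on simulated data whose set changes were larger than the difference of any member, so it does not bear on differences of the size reported. Python 3.11.15, statsmodels 0.14.6, pandas 2.3.3 and numpy 2.4.6 were used.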

Additional observations from a re-analysis of the deposited data

How the results depend on the processing

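The count of lower members stayed between 24 and 28 under the 7 alternatives of probe set, filter and centring, out of 32 to 41. The median of the members lay between -0.09 and -0.06, and the count at a ratio of 0.8 or less stayed at 1. By construction, other thresholds change the counts: with a ratio of 1/1.2 or less, 6 members and 3 of the other genes passed, and with 1/1.5 or less, 0 and 0. No member reached a ratio of 1.2 under these alternatives. Among the other genes of the pathway, the count at 0.8 or less was 0 with a filter at a mean signal of 7, which leaves out Mterf2, and 2 with the loess curve subtracted. Ssbp1 alone turned its sign, with the mean of its probe sets or with its probe set of largest difference. The median of the members of RNA stability and decay lay between -0.21 and -0.17, and that of the other members between -0.04 and -0.0037. The median of the mitochondria-encoded probe sets was 0.03 under both centrings. No paired analysis was possible because each genotype has 1 array, and for the same reason no replicate could be left out.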

Other observations

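Probe sets that several genes share entered the counts above only under the alternative that kept them, each counted for each of its genes. Those annotated to the mitochondria-encoded ATP6 together with Gm10925 had log2 signals of 13.40 and 13.48 and of 13.43 and 13.45 on the control and the PGC-1β(i)skm-/- array, and the one annotated to ND6 and Acsm2 7.08 and 7.05. The probe set of Tymp, the thymidine phosphorylase, and Sco2, a copper chaperone of complex IV, had 6.32 and 6.51, a log2 difference of 0.19, and that of Alkbh1, a demethylase of nucleic acids, and Nrp had 6.77 and 6.78.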
